A study of Mus musculus with 4 samples.

Results

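The 10 genes described here are the CC chemokines Ccl2, Ccl3, Ccl4, Ccl5, Ccl7, Ccl11, Ccl12, Ccl17, Ccl19 and Ccl21a, followed across mouse amygdala with and without the P2X7 receptor. They were taken by name: 12 of the 41174 probes carried the gene name of 9 of them, and Ccl21a was reached through its RefSeq accession on 1 further probe, which the array files call Ccl21b. All 13 probes and all 10 genes passed the filter on dim probes, which kept 19462 of 28632 gene names. Ccl5, Ccl7 and Ccl19 had more than 1 probe, and the brighter probe stands for the gene below. The Ccl21a probe lists 3 RefSeq accessions, so near-identical Ccl21 copies cannot be told apart on it, and the Ccl12 probe lists 2.

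Chemokines are small secreted proteins that direct leukocytes along gradients by activating G protein-coupled receptors, and the CC class is named for a pair of adjacent cysteines near the amino terminus. The inflammatory members are made on demand after a Toll-like receptor or cytokine signal, largely through NF-kB and interferon regulatory factors, in brain by microglia, astrocytes, endothelium and arriving myeloid cells. The homeostatic members Ccl19 and Ccl21 act on CCR7 and guide lymphocytes and dendritic cells, mainly in lymphoid tissue.

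The series profiled the whole amygdala on 1-colour Agilent arrays. The mice were males of strain C57BL/6J, 10 weeks old, taken 6 h after an intraperitoneal injection. The groups were P2X7R -/- knockout mice given lipopolysaccharide (LPS, the Toll-like receptor 4 ligand of Gram-negative bacteria), knockout mice given saline, wild-type mice given LPS and wild-type mice given saline, with 4 arrays in each and 4 mice per group by the labels. The LPS dose is given both as 7.5 µg per mouse and as 250 µg/kg. P2X7R, encoded by P2rx7, is an ATP-gated ion channel of microglia and other myeloid cells, and the labels describe its loss as a genetic deletion without a tissue limit. No label ties an array to a mouse, and each p-value therefore rests on the spread between arrays, which may be partly technical.

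Spot intensity was divided by the 75th percentile of its array and expressed as log2, so a level of 0 is the 75th percentile. That percentile lay between 345.9 and 1152.5 intensity units over the 16 arrays, and 58.1% to 71.9% of probes were well above background. Knockout and wild-type arrays lay on different slides and were scanned in different sessions, so genotype and batch cannot be told apart. P2rx7 averaged −1.35 in knockout LPS arrays, −1.09 in knockout saline arrays, 0.30 in wild-type LPS arrays and 0.42 in wild-type saline arrays, which made its brighter probe lower in the knockout by 1.65 ± 0.25 log2 units after LPS (SE, adjusted p = 9.89e-05) and by 1.51 ± 0.25 after saline (adjusted p = 0.000196). The other P2rx7 probe was not called (0.06 ± 0.29 after LPS, adjusted p = 0.88, and 0.24 ± 0.29 after saline, adjusted p = 0.515). Whether either probe lies inside the deleted stretch is not given in the sources used here. Of 6 amygdala marker genes, 5 passed the filter, with summed linear levels of 6.92 to 8.45 in knockout LPS arrays, 6.81 to 9.02 in knockout saline arrays, 4.77 to 12.7 in wild-type LPS arrays and 5.74 to 8.24 in wild-type saline arrays, and Crh had no probe. These sums hide opposite changes: 1 of the 5 was called higher and 2 lower in the knockout, after saline and after LPS alike. Of 5 striatal markers, 3 were lower after saline and 2 after LPS, with 0 higher. Of 4 hippocampal markers, 3 were lower and 1 higher in each. In these comparisons 51.0% (saline) and 47.2% (LPS) of all genes were called, and tissue match was not tested. Wild-type saline replicates 1 and 2, both on slide 1, were both higher than replicates 3 and 4 in 9 of the 10 chemokines (all but Ccl21a), and results that rest on them are given with and without them.

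The gene starts of 5 of the 10 members are in the RefSeq promoter table used here, on build GRCm38.p6, and the 250 bases before each start are shown because 3 of these genes (Ccl3, Ccl12 and Ccl19) were called higher after LPS in the knockout and the other 2 (Ccl17 and Ccl21a) were not. Each is written 5′ to 3′ on the strand of its gene. Capitals mark matches to TATAA, the core of the TATA box, and to GAAANNGAAA, the core of the interferon-stimulated response element, on either strand. They lie at chr11:83649379-83649628 on the minus strand (Ccl3), chr11:82101595-82101844 on the plus strand (Ccl12), chr4:42756366-42756615 on the minus strand (Ccl19), chr8:94810203-94810452 on the plus strand (Ccl17) and chr4:42773992-42774241 on the minus strand (Ccl21a).
Ccl3: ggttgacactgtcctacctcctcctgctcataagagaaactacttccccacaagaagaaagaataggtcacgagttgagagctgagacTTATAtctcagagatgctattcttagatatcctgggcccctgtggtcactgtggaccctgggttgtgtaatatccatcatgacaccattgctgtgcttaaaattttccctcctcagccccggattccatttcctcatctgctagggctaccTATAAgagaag
Ccl12: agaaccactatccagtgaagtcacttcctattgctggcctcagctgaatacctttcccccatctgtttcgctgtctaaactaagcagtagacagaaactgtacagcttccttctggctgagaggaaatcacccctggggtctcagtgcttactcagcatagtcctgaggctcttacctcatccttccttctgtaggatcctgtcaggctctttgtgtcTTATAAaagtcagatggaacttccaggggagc
Ccl19: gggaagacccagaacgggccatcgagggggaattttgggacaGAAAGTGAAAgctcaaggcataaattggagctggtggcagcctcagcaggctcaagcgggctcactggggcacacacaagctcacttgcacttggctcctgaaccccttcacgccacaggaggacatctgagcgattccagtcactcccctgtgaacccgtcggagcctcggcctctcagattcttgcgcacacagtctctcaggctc
Ccl17: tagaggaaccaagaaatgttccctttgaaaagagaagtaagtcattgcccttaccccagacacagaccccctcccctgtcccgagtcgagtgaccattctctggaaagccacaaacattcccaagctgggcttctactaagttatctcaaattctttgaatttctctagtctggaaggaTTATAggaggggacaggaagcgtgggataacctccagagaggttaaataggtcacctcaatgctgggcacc
Ccl21a: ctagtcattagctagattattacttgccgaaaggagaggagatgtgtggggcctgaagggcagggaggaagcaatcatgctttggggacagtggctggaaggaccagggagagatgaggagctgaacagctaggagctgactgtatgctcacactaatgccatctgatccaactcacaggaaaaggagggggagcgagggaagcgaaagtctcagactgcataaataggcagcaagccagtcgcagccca
TATAA was present in 3 of the 5 stretches and in 22.8% of 32851 mouse promoters of the same length. In Ccl12 it lay at −31 to −27 from the start, overlapping a match on the other strand at −32 to −28, in Ccl3 at −11 to −7 and again on the other strand at −162 to −158, and in Ccl17 on the other strand at −71 to −67. The interferon-stimulated response element core occurred in Ccl19 alone among the 5, as GAAAGTGAAA at −208 to −199, and in 2.98% of all promoters. The kappaB consensus, searched on both strands, had no match in the 5 stretches and a match in 7.25% of all promoters. These are matches of letters in one window of each gene and were not tested for binding.

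LPS raised 8 of the 10 chemokines in the amygdala of knockout mice. Ccl2 and Ccl5 rose by 8.74 and 7.15 log2 units, Ccl7, Ccl4, Ccl11, Ccl3 and Ccl12 by 3.86 to 5.90, and Ccl19 by 2.41, while Ccl17 and Ccl21a were not called. The call is an adjusted p under 0.05 from limma with Benjamini-Hochberg adjustment over all genes. In the same comparison 3.66% of all 19462 genes were called in either direction and 2.50% were called higher. The median difference of the 10 members was 4.57, and that of all genes was −0.09. In bulk tissue, more cells of a type and more RNA per cell cannot be told apart.

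**Figure D1:**
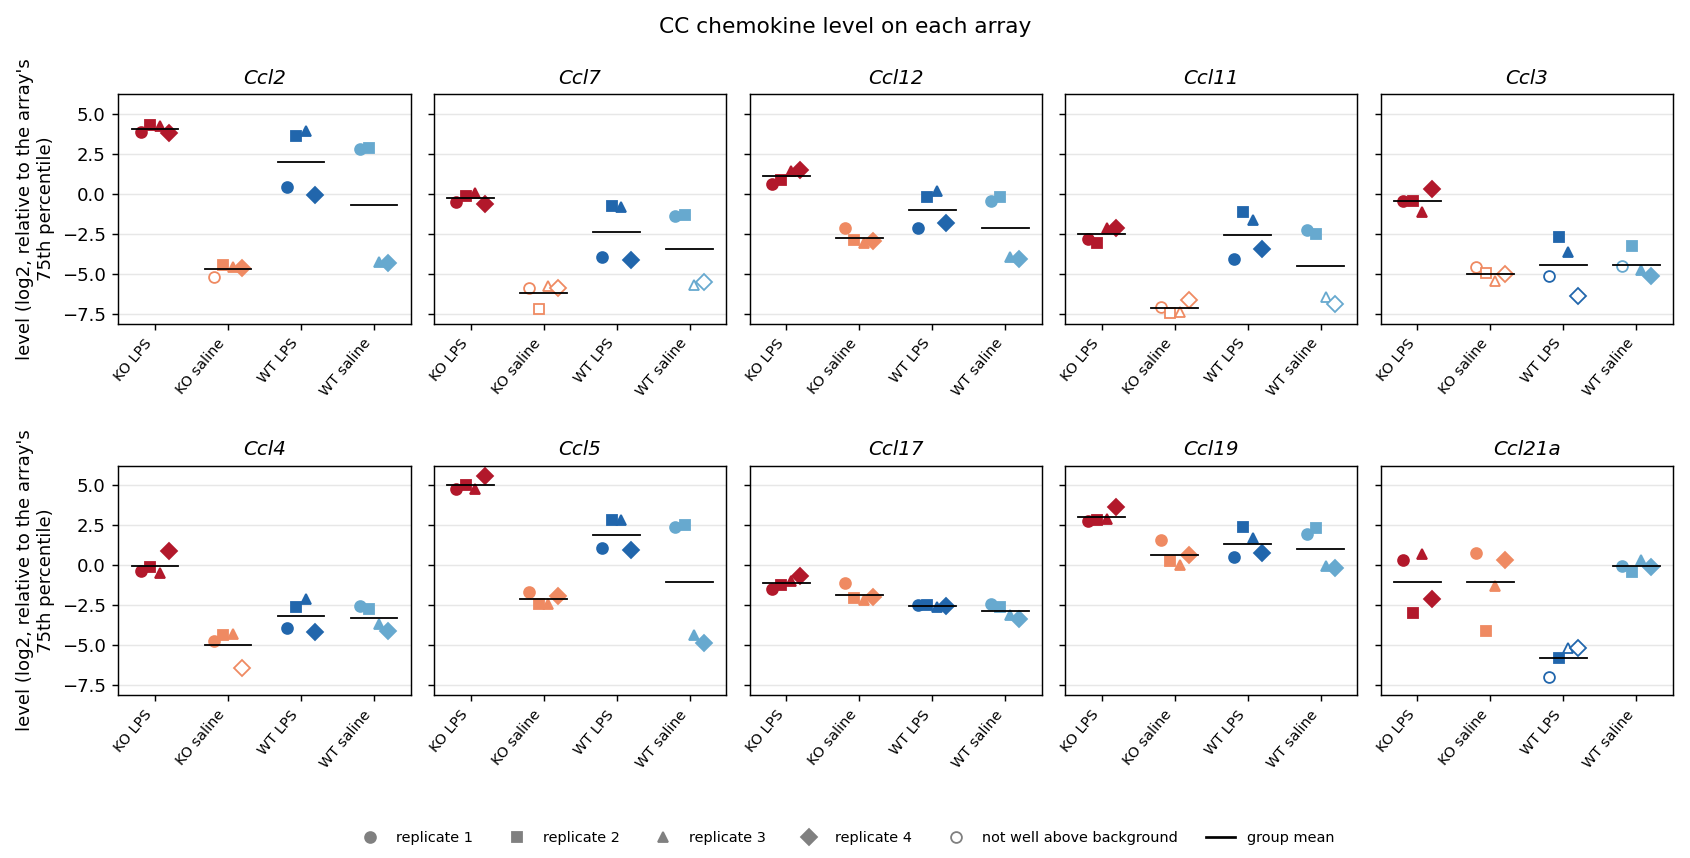
Level of each CC chemokine on each of the 16 arrays, as log2 intensity relative to the array's 75th percentile, with arrays grouped as knockout LPS, knockout saline, wild-type LPS and wild-type saline. Each symbol is 1 replicate, open where it was not well above background, horizontal lines are group means, and the wild-type saline arrays of Ccl2, Ccl5, Ccl7, Ccl11 and Ccl12 fall into a high and a low pair.

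Ccl2, Ccl7 and Ccl12 are monocyte-attracting ligands of CCR2, and their probes lie near each other on chromosome 11 with that of Ccl11 (build mm9, chr11:81850650-81850709 for Ccl2, chr11:81860656-81860715 for Ccl7, chr11:81916710-81916769 for Ccl12 and chr11:81876072-81876131 for Ccl11). Ccl2 stood at 3.88, 4.32, 4.22 and 3.78 on the 4 knockout LPS arrays, against −5.19, −4.44, −4.54 and −4.61 on the knockout saline arrays. Every LPS array lay far above every saline array, and 1 saline array (−5.19) was not well above background. The rise of 8.74 ± 1.44 log2 units (SE, n = 4 arrays per group, adjusted p = 0.00327) was the largest among the 10 members. Each SE here rests on the spread of a gene over all 16 arrays, so wild-type scatter enters it. The SD of Ccl2 was 0.26 in knockout LPS, 0.34 in knockout saline and 4.11 in wild-type saline. Without wild-type saline replicates 1 and 2 in the fit, the SE of the same rise was 0.72. Ccl7 stood at −0.49, −0.10, 0.07 and −0.61 in knockout LPS, against −5.90, −7.17, −5.75 and −5.89 in knockout saline. None of those saline arrays was well above background. The change of 5.90 ± 0.99 (adjusted p = 0.00342) is therefore given as a bound, at least 24.9-fold with the deposited background subtraction. Ccl12, a CCR2 ligand of the mouse, stood at 0.63, 0.84, 1.43 and 1.48 in knockout LPS, against −2.12, −2.88, −3.07 and −2.97 in knockout saline, all above background. The groups did not overlap and differed by 3.86 ± 0.78 (adjusted p = 0.0100).

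Ccl11, or eotaxin, attracts eosinophils through CCR3. It stood at −2.79, −3.07, −2.11 and −2.11 in knockout LPS, against −7.03, −7.45, −7.39 and −6.64 in knockout saline. The saline arrays were all not well above background. The difference of 4.61 ± 0.91 (adjusted p = 0.00895) is therefore given as a bound, at least 5.28-fold with the deposited background subtraction.

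Ccl3, Ccl4 and Ccl5 are inflammatory attractants of monocytes and activated T cells, and their probes lie at chr11:83461358-83461417, chr11:83478052-83478111 and chr11:83339296-83339355 (mm9). Ccl3 stood at −0.47, −0.46, −1.14 and 0.32 in knockout LPS, against −4.54, −4.92, −5.46 and −4.97 in knockout saline, where no array was well above background. Its difference was 4.54 ± 0.62 (adjusted p = 0.00196), or at least 21.0-fold with the deposited background subtraction. Ccl4 stood at −0.39, −0.12, −0.46 and 0.90 in knockout LPS, against −4.70, −4.38, −4.30 and −6.42 in knockout saline. The last of these was not well above background, and the rise of 4.93 ± 0.54 had the smallest adjusted p of the members (0.000415). That rank also depends on the wild-type arrays in the fit. Without wild-type saline replicates 1 and 2, Ccl5 had the smallest (1.7e-07). Ccl5 was bright after LPS, at 4.77, 5.0, 4.78 and 5.56 in the knockout, against −1.68, −2.44, −2.44 and −1.93 in knockout saline, a rise of 7.15 ± 1.32 (adjusted p = 0.0062). The other Ccl5 probe gave 3.40, 3.33, 3.07 and 3.60 in knockout LPS, against −3.72, −4.74, −5.76 and −4.07 in knockout saline, with 1 saline array not well above background. Both Ccl5 probes were called higher in a fit at probe level, by 7.15 and 7.92.

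Ccl17 is a ligand of CCR4 on T helper and regulatory T cells, with a probe at chr8:97335770-97335829 (mm9). It stood at −1.48, −1.26, −0.99 and −0.67 in knockout LPS, against −1.12, −2.07, −2.19 and −2.0 in knockout saline. Saline replicate 1 lay among the LPS arrays, and the difference of 0.75 ± 0.26 was not called (adjusted p = 0.156). Without that array it was 0.99 and was called (adjusted p = 0.0222).

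Ccl19 and Ccl21a are the CCR7 ligands, and their probes lie on chromosome 4 (mm9, chr4:42250432-42250491 and chr4:42231835-42231894). Ccl19 stood at 2.78, 2.83, 2.88 and 3.66 in knockout LPS, against 1.57, 0.26, 0.03 and 0.64 in knockout saline. The groups did not overlap, and the rise was 2.41 ± 0.56 (adjusted p = 0.0228). The other Ccl19 probe stood at 2.13, 2.17, 2.27 and 3.01 in knockout LPS, against 1.85, −0.14, −0.17 and 0.10 in knockout saline. Its difference of 1.98 ± 0.59 was not called at probe level (adjusted p = 0.095), so the Ccl19 call rests on 1 of its probes. That call was lost when any one of 7 of the 8 knockout arrays was left out (adjusted p = 0.0523 to 0.0739). Ccl21a scattered widely within the knockout, at 0.30, −3.0, 0.67 and −2.14 after LPS, against 0.73, −4.09, −1.28 and 0.33 after saline, and differed by 0.03 ± 0.93 (adjusted p = 0.989). With normexp background correction the differences of Ccl3, Ccl7 and Ccl11 were 1.23, 1.68 and 0.31 and were not called. These are smaller than the bounds given above, which therefore hold for the deposited background subtraction only. In all, 8 of 10 members had knockout groups that did not overlap, where 11.3% of all genes did.

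In wild-type mice the LPS response of these genes depended on which saline arrays were used. Over all arrays limma called 0 of the 10 members, where 0.0103% of all genes were called, and 3 members (Ccl5, Ccl11 and Ccl21a) had an unadjusted p under 0.05, as 6.62% of all genes did. Without saline replicates 1 and 2 it called 5, with Ccl2, Ccl5, Ccl11 and Ccl12 higher and Ccl21a lower, where 3.13% of all genes were called. The median difference of the members was 0.70 over all arrays and 2.23 without that pair, against −0.04 and −0.10 for all genes. The arrays concerned were chosen with earlier results of these data known, and they were the higher saline arrays in every member but Ccl21a. Leaving them out raises the LPS difference of those members by construction. For Ccl21a it enlarges the fall, from −5.69 to −5.87. The p-values of all members without the pair therefore describe the remaining arrays and are not a test of an LPS response. The same limit holds below for the genotype and interaction values without the pair. It also holds for the wild-type LPS differences of other genes given without the pair.

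**Figure D2:**
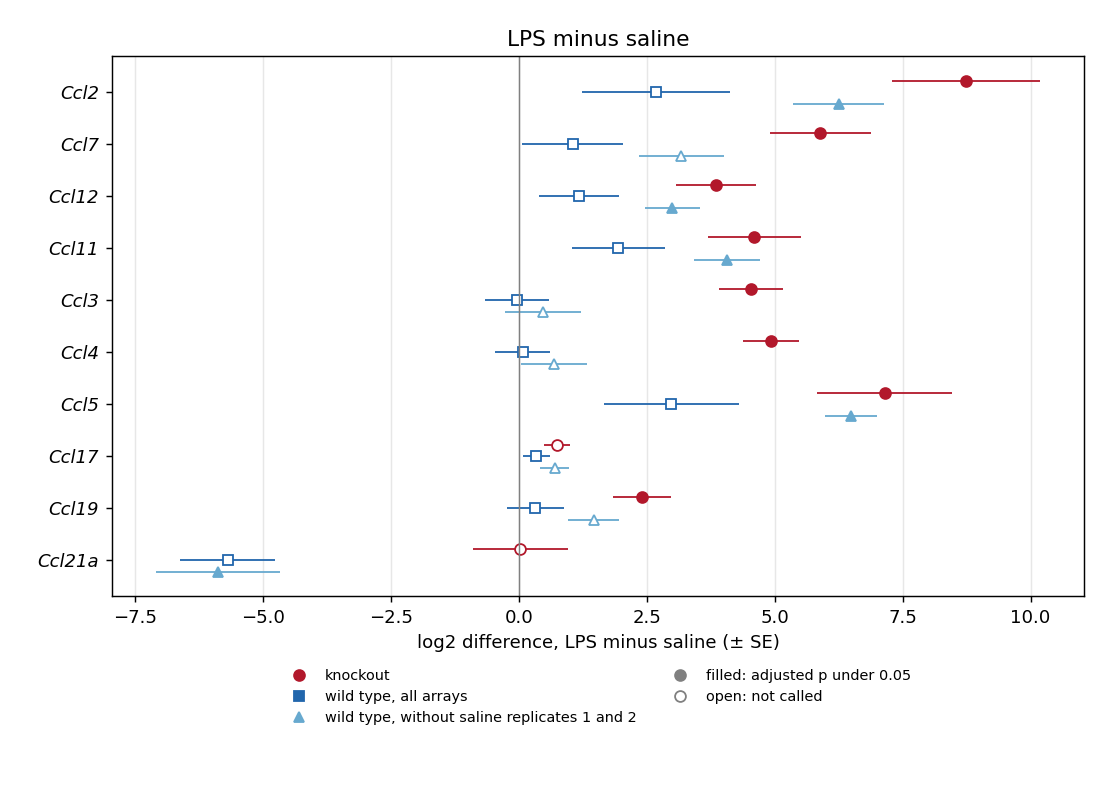
Difference between LPS and saline arrays (log2, ± SE) for each CC chemokine in knockout mice, in wild-type mice over all arrays, and in wild-type mice without saline replicates 1 and 2. Filled symbols have an adjusted p under 0.05, which 8 of 10 members reach in the knockout and 0 of 10 in wild type over all arrays.

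Ccl2 stood at 0.42, 3.60, 3.93 and −0.10 on the wild-type LPS arrays, against 2.79, 2.89, −4.25 and −4.32 on the wild-type saline arrays. Saline replicates 1 and 2 lay inside the LPS range and replicates 3 and 4 far below it. The difference was 2.69 ± 1.44 over all arrays (adjusted p = 0.784) and 6.25 ± 0.88 without the first pair (adjusted p = 0.00103). Ccl5 showed the same split, at 1.05, 2.83, 2.81 and 0.93 in wild-type LPS, against 2.38, 2.50, −4.35 and −4.84 in wild-type saline, with a difference of 2.98 ± 1.32 (adjusted p = 0.726) that became 6.50 ± 0.51 without replicates 1 and 2 (adjusted p = 7.8e-06). Its other probe gave −0.27, 2.50, 1.64 and 0.03 in wild-type LPS, against 1.89, 2.35, −5.21 and −5.36 in wild-type saline, so both probes divided the saline arrays alike.

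Ccl11 stood at −4.06, −1.12, −1.65 and −3.44 in wild-type LPS, against −2.25, −2.52, −6.43 and −6.86 in wild-type saline. The last 2 were not well above background. Its difference was 1.95 ± 0.91 over all arrays (adjusted p = 0.751), and without the high pair it was called higher, by at least 9.24-fold (4.08 ± 0.64, adjusted p = 0.00242). Ccl12 stood at −2.11, −0.20, 0.18 and −1.80 in wild-type LPS, against −0.47, −0.19, −3.93 and −4.04 in wild-type saline, differing by 1.18 ± 0.78 (adjusted p = 0.853) and, without the high pair, by 3.0 ± 0.54 (adjusted p = 0.00662). Ccl7 followed the same order of arrays, at −3.92, −0.77, −0.82 and −4.13 in wild-type LPS, against −1.39, −1.30, −5.69 and −5.47 in wild-type saline, with the last pair not well above background. It was called neither over all arrays (1.05 ± 0.99, adjusted p = 0.922) nor without the high pair (3.17 ± 0.83, adjusted p = 0.0576, at least 9.02-fold).

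The macrophage inflammatory proteins Ccl3 and Ccl4 were not called higher in wild type with either set of arrays. Ccl3 stood at −5.11, −2.67, −3.63 and −6.38 in wild-type LPS, against −4.53, −3.27, −4.73 and −5.13 in wild-type saline, and LPS replicates 1 and 4 and saline replicate 1 were not well above background. Ccl4 stood at −3.93, −2.59, −2.13 and −4.15 in wild-type LPS, against −2.57, −2.75, −3.67 and −4.11 in wild-type saline. Both genes had overlapping groups, with differences of −0.03 ± 0.62 and 0.08 ± 0.54 over all arrays, and of 0.48 ± 0.74 and 0.69 ± 0.65 without the high pair. The saline split was narrow in these genes compared with that in Ccl2 and Ccl5.

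Ccl19 stood at 0.50, 2.37, 1.70 and 0.75 in wild-type LPS, against 1.96, 2.32, −0.07 and −0.20 in wild-type saline, a difference of 0.33 ± 0.56 (adjusted p = 0.983) that was 1.47 ± 0.50 without the high pair (adjusted p = 0.151). Ccl17 stood at −2.49, −2.47, −2.62 and −2.54 in wild-type LPS, against −2.42, −2.62, −3.11 and −3.35 in wild-type saline, differing by 0.35 ± 0.26 (adjusted p = 0.881) and, without the high pair, by 0.70 ± 0.29 (adjusted p = 0.24). Ccl21a lay the other way, at −6.96, −5.80, −5.13 and −5.15 in wild-type LPS, against −0.08, −0.44, 0.31 and −0.09 in wild-type saline. It was the only member whose wild-type groups did not overlap, 1 of 10 where 4.80% of all genes had such groups, and only LPS replicate 2 was well above background. The difference of −5.69 ± 0.93 had an adjusted p of 0.0844 over all arrays. Without saline replicates 1 and 2, which are not the higher pair in Ccl21a, the difference was −5.87 ± 1.22 (adjusted p = 0.0162). It was also called without knockout saline replicate 1 or 2, which share the fit (adjusted p = 0.0286 and 0.0239), and in a fit of the wild-type groups alone (adjusted p = 0.00268).

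Each slide held arrays of 1 genotype and 2 arrays of each treatment, which allowed the LPS difference to be read within a slide. In the knockout the slides gave close values, 8.62 and 8.87 for Ccl2, 6.96 and 7.34 for Ccl5, 4.94 and 4.93 for Ccl4, and 4.41 and 4.66 for Ccl3 on slides 3 and 4. In wild type they did not: on slides 1 and 2 Ccl2 differed by −0.67 and 6.04, Ccl5 by −0.51 and 6.48, Ccl11 by −0.47 and 4.37, Ccl7 by −1.03 and 3.13, and Ccl12 by −0.63 and 2.99. Ccl3 differed by −0.47 and 0.41 and Ccl4 by −0.37 and 0.52 on the same slides. Ccl21a was alike on both, at −5.79 and −5.59. Slide 1 held saline replicates 1 and 2 with LPS replicates 1 and 3, and slide 2 held the others.

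**Figure D3:**
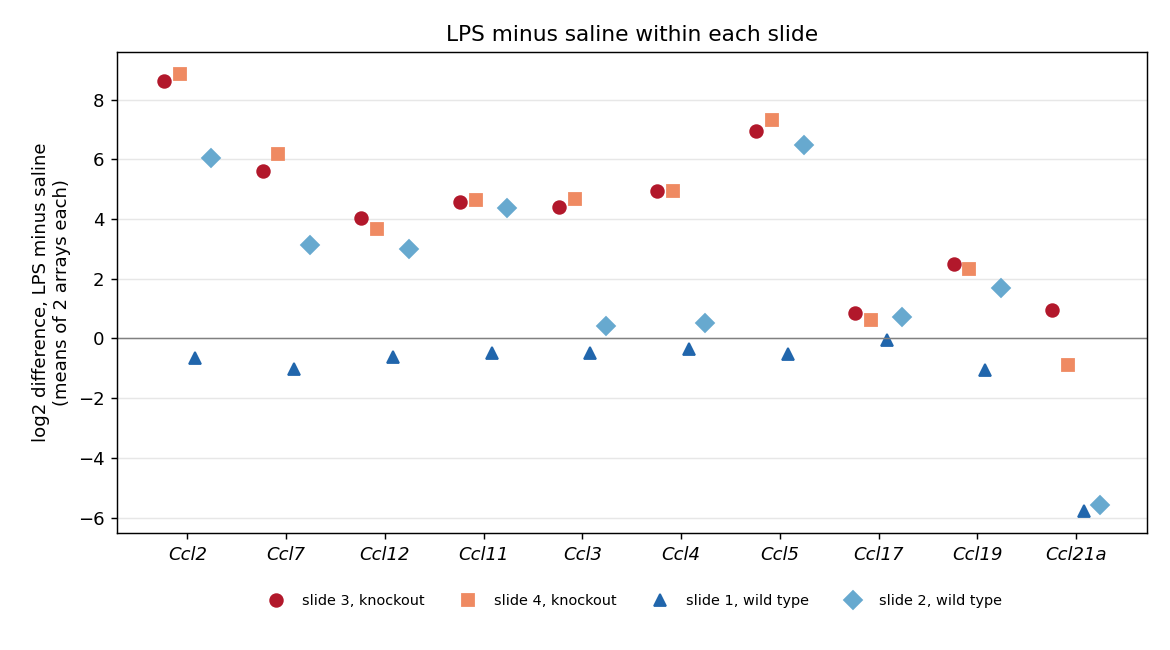
Difference between the mean of the LPS arrays and the mean of the saline arrays of the same slide (log2) for each CC chemokine, for knockout slides 3 and 4 and wild-type slides 1 and 2. The knockout slides lie near each other for the 8 genes called there, while slide 1 is below 0 for every member and slide 2 reaches 6.48 for Ccl5.

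The spread of the wild-type LPS arrays was also wide in these genes. In Ccl2, Ccl3, Ccl4, Ccl5, Ccl7, Ccl11, Ccl12 and Ccl19 replicates 2 and 3 were both higher than replicates 1 and 4, and replicates 2 and 3 lie on different slides. The SD of Ccl2 was 0.26 over the knockout LPS arrays and 2.09 over the wild-type LPS arrays, and that of Ccl7 was 0.32 over the knockout LPS arrays and 1.87 over the wild-type LPS arrays. Neutrophil and monocyte markers moved with this division in mean log2 level, at 0.60 and 0.34 on wild-type LPS replicates 2 and 3, and −0.61 and −0.39 on replicates 1 and 4. Their summed linear levels did not, at 17.9 and 15.5 on replicates 2 and 3, and 15.9 and 17.0 on replicates 1 and 4. Mean log2 levels of meningeal fibroblast markers (1.44 and 1.27, against 0.90 and 0.66) and lymphatic endothelial markers (−1.90 and −2.16, against −2.45 and −2.49) also followed the division. Oligodendrocyte markers went the other way, at 2.41 and 1.64 on replicates 2 and 3, and 3.35 and 2.98 on replicates 1 and 4. Microglial, striatal and hippocampal markers were also lower on replicates 2 and 3. Their part in the chemokine values was not tested.

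Markers of other cells moved with the wild-type saline split. Of 7 markers of neutrophils and monocytes, 4 were kept (S100a8, S100a9, Plac8 and Ly6c2), and the defining neutrophil genes Ngp and Camp were not. On wild-type saline arrays their mean log2 level was 0.57 and 0.77 in the slide 1 pair, and −2.95 and −2.15 in the slide 2 pair. Their summed linear level was 12.4 to 28.8 in knockout LPS, 9.83 to 20.8 in knockout saline, 15.5 to 17.9 in wild-type LPS and 9.41 to 22.5 in wild-type saline arrays. After LPS in the knockout Plac8 was higher by 3.74 ± 0.94 (adjusted p = 0.0352), with S100a8 at 2.68 and S100a9 at 2.21 not called, and over all wild-type arrays none of the 4 was called. Choroid plexus markers split the other way, with 4 of 5 kept and mean log2 levels of −2.70 and −2.41 in the slide 1 pair, and −0.38 and −0.11 in the slide 2 pair. Hippocampal markers did so too, at −2.45 and −2.52 in the slide 1 pair, and −0.79 and −0.72 in the slide 2 pair. Microglial markers, at −0.36 and −0.43 in the slide 1 pair, and 0.55 and 0.48 in the slide 2 pair, were also lower on slide 1. So were endothelial markers, at −1.12 and −0.96 in the slide 1 pair, and −0.15 and −0.05 in the slide 2 pair. Oligodendrocyte markers were at 2.46 and 2.37 in the slide 1 pair, and 3.63 and 3.57 in the slide 2 pair, and striatal markers at −0.06 and −0.08 in the slide 1 pair, and 0.91 and 0.86 in the slide 2 pair. Mean log2 levels of perivascular macrophage, meningeal fibroblast, astrocyte and neuronal markers were also lower on both slide 1 arrays. So were those of lymphocyte and dendritic cell markers and of blood markers. Amygdala and lymphatic endothelial markers overlapped between the pairs. The part of these cells or regions in the chemokine values was not tested.

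Markers of resident cells were also counted in the knockout after LPS. All 10 microglial markers were kept, with summed levels of 28.9 to 33.2 in knockout LPS against 35.1 to 62.5 in knockout saline, and 1 of them (Gpr34, −4.0 ± 0.85) was lower. Perivascular macrophage markers, 6 of 6 kept, summed to 0.603 to 0.879 in knockout LPS against 1.30 to 1.73 in knockout saline, with Cd209f, Lyve1 and F13a1 lower. Endothelial markers, 8 of 8 kept, summed to 17.1 to 24.3 in knockout LPS against 10.2 to 36.6 in knockout saline, with 3 lower. Astrocyte markers, 7 of 7 kept, summed to 95.7 to 126.9 in knockout LPS against 112.2 to 193.6 in knockout saline, and 1 of them, the intermediate filament gene Gfap, was higher (1.13 ± 0.29, adjusted p = 0.0373). Of 5 meningeal fibroblast markers 1 (Slc6a13, −1.79) was lower, and none of the oligodendrocyte and neuronal markers was called. Markers of lymphatic endothelium, a source of Ccl21 in other tissue, were dim: 2 of 3 were kept, with sums of 0.43 to 0.571 in knockout LPS, 0.222 to 0.475 in knockout saline, 0.413 to 0.547 in wild-type LPS and 0.504 to 0.748 in wild-type saline. Lymphocyte and dendritic cell markers were dim too, 4 of 7 kept without Cd3g, Cd8a and Cd209a, at 0.205 to 0.314 in knockout LPS, 0.177 to 0.374 in knockout saline, 0.178 to 0.348 in wild-type LPS and 0.181 to 0.226 in wild-type saline. Their part in the chemokine values was not tested.

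After LPS, knockout amygdala had higher levels than wild-type amygdala for 6 of the 10 chemokines, but genotype goes with slide and scan session, and 47.2% of all genes were called in this comparison, so the count alone says nothing particular of the members. The sizes were largest for Ccl21a (4.72 ± 0.93, adjusted p = 0.000804), Ccl3 (4.01 ± 0.62, adjusted p = 0.000113) and Ccl4 (3.18 ± 0.54, adjusted p = 0.000263). Ccl12 was higher by 2.08 ± 0.78 (adjusted p = 0.0383), Ccl19 by 1.71 ± 0.56 (adjusted p = 0.0209) and Ccl17 by 1.43 ± 0.26 (adjusted p = 0.000391). Ccl5 differed by 3.12 ± 1.32 (adjusted p = 0.0633), Ccl7 by 2.13 ± 0.99 (adjusted p = 0.0889) and Ccl2 by 2.09 ± 1.44 (adjusted p = 0.249), and Ccl11 by 0.05 ± 0.91 (adjusted p = 0.972). The median of the members was 2.11, where that of all genes was 0.05.

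The groups after LPS did not overlap for 8 members, Ccl2 and Ccl11 being the exceptions, where 51.9% of all genes had groups that did not overlap. Ccl3 averaged −0.44 ± 0.60 in knockout LPS and −4.45 ± 1.63 in wild-type LPS (SD, n = 4 each), and Ccl4 averaged −0.02 ± 0.63 in knockout LPS and −3.20 ± 0.99 in wild-type LPS. For Ccl21a the means were −1.04 ± 1.80 in knockout LPS and −5.76 ± 0.86 in wild-type LPS. At probe level the other Ccl19 probe was not called (1.20 ± 0.59, adjusted p = 0.105), and the other Ccl7 probe was (2.69, adjusted p = 0.031). The Ccl12 call was lost without knockout LPS replicate 2, 3 or 4 or wild-type LPS replicate 1 or 4 (adjusted p = 0.0589 to 0.115), and the Ccl19 call without knockout LPS replicate 4 or wild-type LPS replicate 1 or 4 (adjusted p = 0.0565 to 0.069). Ccl12 was also not called with slide as a random block (2.08, adjusted p = 0.0648), which left 5 calls. Under normexp Ccl19 was not called (1.37, adjusted p = 0.0511) and Ccl5 was (3.49, adjusted p = 0.00705). A fit of the LPS groups alone added Ccl5 (adjusted p = 0.000614) and Ccl7 (adjusted p = 0.0408). Ccl5 was called without any one wild-type saline array, and Ccl7 without wild-type LPS replicate 2. When wild-type saline replicates 1 and 2 were left out of the fit, the same LPS arrays gave 9 calls, with Ccl2, Ccl5 and Ccl7 added (adjusted p = 0.0277, 5.97e-05 and 0.019), where 49.4% of all genes were called.

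After saline, 4 chemokines were lower and 1 was higher in knockout than in wild-type arrays, where 51.0% of all genes were called. Ccl2 was lower by 3.97 ± 1.44 (SE, adjusted p = 0.0316), averaging −4.70 ± 0.34 in knockout saline and −0.72 ± 4.11 in wild-type saline (SD). Ccl4 differed by −1.68 ± 0.54 (adjusted p = 0.0179), Ccl7 by −2.71 ± 0.99 (adjusted p = 0.0322, at least 2.74-fold lower) and Ccl11 by −2.61 ± 0.91 (adjusted p = 0.0258, at least 1.33-fold lower), while Ccl17 was higher by 1.03 ± 0.26 (adjusted p = 0.00385). The other Ccl7 probe was not called (−1.52, adjusted p = 0.199). Groups did not overlap for Ccl2, Ccl4, Ccl7 and Ccl17, 4 of 10 where 46.2% of all genes had such groups. For Ccl7 that separation is one of values not well above background, since wild-type replicates 3 and 4 (−5.69 and −5.47) lay just over the brightest knockout array (−5.75).

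Without wild-type saline replicates 1 and 2 none of the 4 lower calls held. Ccl2 differed by −0.41 and Ccl4 by −1.06 (adjusted p = 0.216). Ccl7 and Ccl11 then had no array well above background in either group, so no difference is given for them. The 2 genes then called were both higher in the knockout, Ccl5 by 2.47 ± 0.51 (adjusted p = 0.00259) and Ccl17 by 1.39 ± 0.29 (adjusted p = 0.00268), where 35.7% of all genes were called. The other Ccl5 probe lay much closer between genotypes. It averaged −4.57 in knockout saline (−5.76 to −3.72), against −5.21 and −5.36 on wild-type saline replicates 3 and 4. That probe was not tested without the pair, so the Ccl5 call rests on 1 of its probes. Leaving out wild-type saline replicate 1 alone or replicate 2 alone left 1 call, Ccl17, where 44.3% and 43.9% of all genes were called. The Ccl2 call was also lost without any one knockout saline array, that of Ccl7 without replicate 1 or 2 of that group, that of Ccl11 without its replicate 2 or 3, and that of Ccl4 without its replicate 4. With normexp background correction and all arrays, Ccl4, Ccl7 and Ccl11 differed by 0.44, 0.41 and 0.43 and were not called. Ccl5, Ccl12 and Ccl19 turned direction without the pair. Over all arrays they had differed by −1.04, −0.60 and −0.38, and without the pair Ccl12 and Ccl19 differed by 1.22 (adjusted p = 0.0945) and 0.76 (adjusted p = 0.251), neither of them called. Ccl17 was higher in the knockout after LPS and after saline, with and without that pair.

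**Figure D4:**
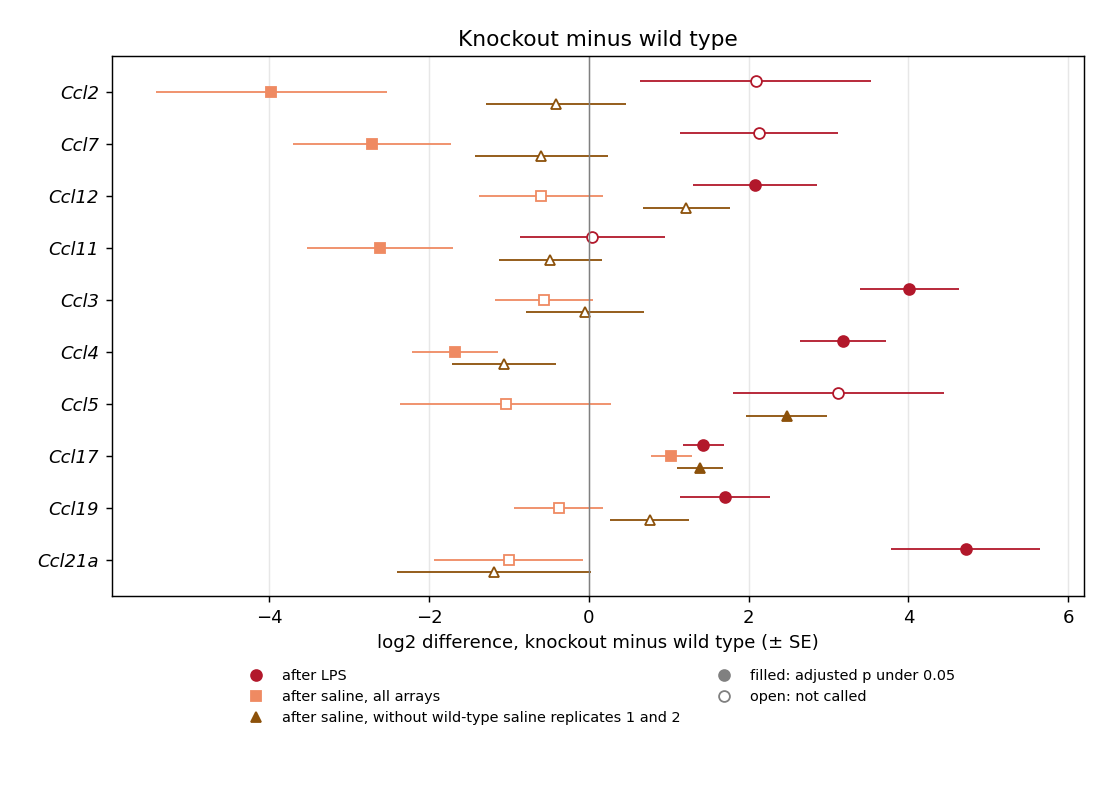
Difference between knockout and wild-type arrays (log2, ± SE) for each CC chemokine after LPS, after saline over all arrays, and after saline without wild-type saline replicates 1 and 2. Filled symbols have an adjusted p under 0.05; Ccl17 is filled in all 3 sets, and the low saline value of Ccl2 moves toward 0 when the pair is left out. The values then plotted for Ccl7 and Ccl11 compare arrays not well above background.

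Set in order of group means, knockout LPS was the highest group for 9 of the 10 members and knockout saline the lowest for 8. Ccl17 averaged −1.10 ± 0.35 in knockout LPS, −1.84 ± 0.49 in knockout saline, −2.53 ± 0.07 in wild-type LPS and −2.88 ± 0.43 in wild-type saline (SD), where it was lowest. Neighbouring groups of Ccl17 overlapped within each genotype and did not overlap between genotypes. Ccl21a was highest in wild-type saline and lowest in wild-type LPS. For Ccl2, Ccl5, Ccl7, Ccl11 and Ccl12 wild-type LPS and wild-type saline were neighbours in the order, with overlapping arrays.

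The LPS response itself was compared between genotypes as an interaction. Ccl4 was the only member called, with a response larger in the knockout by 4.86 ± 0.77 log2 units (adjusted p = 0.0462), where 0.0360% of all genes were called, and the call held in 3 of 16 fits that each left out 1 array. Ccl2 had an estimate of 6.06 ± 2.04 (adjusted p = 0.479) and Ccl21a one of 5.72 ± 1.32 (adjusted p = 0.228), with 1 of 4 wild-type LPS arrays of Ccl21a well above background. Ccl3 stood at 4.57 ± 0.87 (adjusted p = 0.101), a fitted value that is not exact because no knockout saline array of Ccl3 was well above background, and the same holds for Ccl7 and Ccl11. The median over the members was 4.37, where that of all genes was −0.02, and 8 of 10 had an unadjusted p under 0.05, where 6.91% of all genes did. Without wild-type saline replicates 1 and 2, limma called none of the members, 5 had an unadjusted p under 0.05, as 6.95% of all genes did, and 0.00514% of all genes were called. Ccl4 was then at 4.24 ± 0.84 (adjusted p = 0.17), Ccl3 at 4.06 (adjusted p = 0.364), Ccl2 at 2.50 and Ccl5 at 0.65, and the members' median was 1.72, where that of all genes was 0.04.

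Of 14 other CC chemokines, 7 passed the filter. After LPS in the knockout 1 was called higher and 6 were not called, where 3.66% of all genes were called. The 1 called was Ccl9, a macrophage-derived ligand of CCR1, which rose by 2.93 ± 0.54 (adjusted p = 0.0059). In wild type 0 of 7 were called over all arrays. Ccl9 was called without saline replicates 1 and 2 (1.74, adjusted p = 0.0304), where 3.13% of all genes were called. Between genotypes after LPS, Ccl8, Ccl24, Ccl25 and Ccl27a were higher in the knockout by 1.52, 1.03, 0.84 and 0.98, and the same 4 were higher after saline by 1.30, 0.59, 0.91 and 0.87, with Ccl9 lower by 1.98. These 4 of 7 and 5 of 7 stand beside 47.2% and 51.0% of all genes called. Without the wild-type saline pair Ccl25 alone was called after saline, where 35.7% of all genes were called.

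Among 14 CC chemokine receptors, 6 passed the filter, among them Ccr6, Ccrl2 and the scavenging receptors Ackr1 and Ackr2. Receptors for most of the rising ligands, Ccr1, Ccr2, Ccr3 and Ccr7 among them, did not. In the knockout LPS raised 1 of the 6, Ccrl2, a receptor that binds chemerin without signalling, by 2.44 ± 0.47 (adjusted p = 0.0073). The other 5 were not called, where 3.66% of all genes were called. No receptor was called in wild type over all arrays. Without the saline pair Ccr6 was lower by 1.49 (adjusted p = 0.0451), where 3.13% of all genes were called. After LPS Ccr6 was higher in the knockout than in wild type by 1.84, the only 1 of the 6 called, where 47.2% of all genes were called. After saline 2 of the 6 were lower in the knockout, Ccrl2 by 1.29 among them, where 51.0% of all genes were called. Neither was called without the pair, where 35.7% of all genes were.

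After LPS in the knockout, where 3.66% of all genes were called, 8 of 14 measured genes of the LPS receptor, NF-kB and interferon pathways were higher. None was lower, and 6 were not called. The 8 higher genes were Cd14, the LPS co-receptor (3.72 ± 0.62, adjusted p = 0.0034), Irf7 (3.77 ± 0.76, adjusted p = 0.0103) and Irf1 (2.41 ± 0.42, adjusted p = 0.0042), both interferon regulatory factors, the cytokine Il1b (2.93 ± 0.63, adjusted p = 0.014), the adaptor Myd88 (1.77), the NF-kB subunits Nfkb2 (1.94) and Nfkb1 (0.83), and the NF-kB inhibitor Nfkbia (1.64). In wild type 0 of 14 were called over all arrays. In wild type without saline replicates 1 and 2, 5 of the 14 were called higher, where 3.13% of all genes were called. Among them were Irf7, Cd14, Irf1 and Myd88, by 3.82, 2.38, 1.57 and 1.21. Over all wild-type arrays Irf7 and Cd14 had differed by 1.81 and 0.87. Calls without the pair describe the remaining arrays and are not a test of an LPS response. After LPS Nfkb2, Nfkbia, Il1b and Relb were higher in the knockout than in wild type by 1.86, 1.68, 1.67 and 0.94, and Nfkb1 was lower by 0.99. These 4 higher and 1 lower of 14 stand beside 47.2% of all genes called, and genotype goes with slide. The difference of the LPS responses was called for none of the 14.

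**Figure D5:**
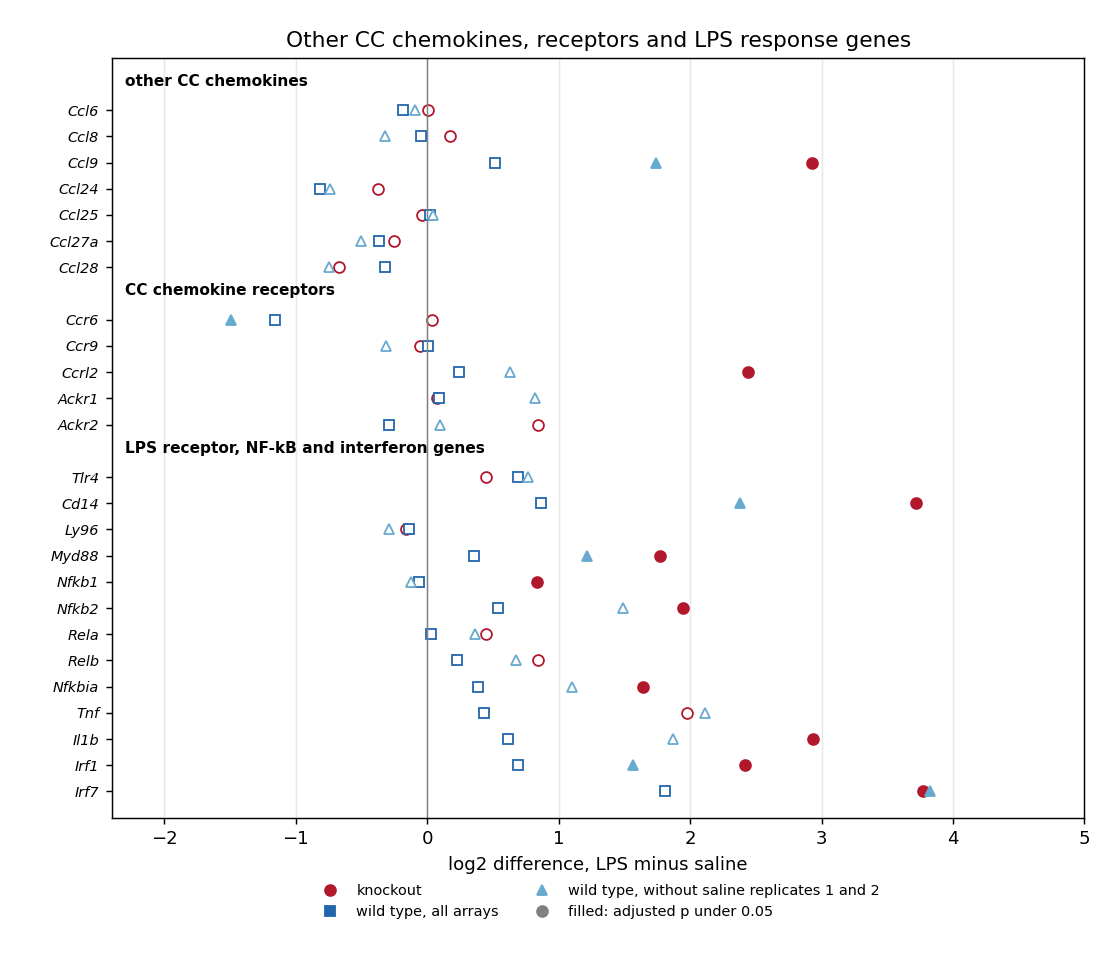
Difference between LPS and saline arrays (log2) for the other CC chemokines, CC chemokine receptors and LPS response genes that passed the filter, in knockout, in wild type over all arrays and in wild type without saline replicates 1 and 2. Filled symbols have an adjusted p under 0.05: 1 of 7 chemokines, 1 of 6 receptors and 8 of 14 response genes in the knockout, and none in wild type over all arrays. Of these, 1 receptor and 1 response gene that were counted and not called in the knockout are not drawn. Of all genes, 3.66% were called in the knockout and 0.0103% in wild type over all arrays.

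For each member the genes with the closest pattern were found as the smallest root mean square difference of centred log2 level over the 16 arrays, among 14635 genes with a symbol and leaving out the 10 members, which are compared with each other further on. Ccl2 was nearest to Cxcl10 (0.617), a CXCR3 ligand, and Cxcl1 (0.747), a neutrophil attractant. Ccl7 was nearest to Acod1 (0.577), the enzyme that makes itaconate, and Clec4e (0.735). Ccl11 was nearest to the interferon-inducible genes Gbp5 (0.464) and Ifi204 (0.502), and Ccl12 to the metalloprotease inhibitor Timp1 (0.345) and the cytokine signalling suppressor Socs3 (0.373). The closest of these genes to Ccl5 were Gbp6 (0.845) and Lcn2 (0.894), to Ccl3 Saa1 (0.871) and Cst7 (0.882), and to Ccl4 Tlr2 (0.83), a receptor of bacterial lipoproteins, and Bcl2a1c (0.834).

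Ccl19 was nearest to Cd40 (0.287), a costimulatory receptor, and Cd44 (0.361), and Ccl17 to Pycard (0.261), the inflammasome adaptor. Ccl21a had no close partner, the nearest being Cdk5r2 at 1.83. Among the members themselves, Ccl3 and Ccl4 were each other's nearest (0.851, closer to Ccl3 than Saa1 was), as were Ccl2 and Ccl5 (1.29), Ccl7 and Ccl11 (0.881), and Ccl12 and Ccl19 (0.75). All these values share the same 16 arrays and describe them only.

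The authors' deposited table of fold changes between group means listed all 10 members in each of its 4 comparisons. For knockout LPS against knockout saline it gave 8 members up by at least 2-fold, including Ccl2 at 423-fold and Ccl5 at 142-fold, with Ccl17 at 1.68-fold. For wild-type LPS against wild-type saline the authors' deposited table gave 5 up, Ccl5 at 7.91-fold, Ccl2 at 6.44-fold, Ccl11 at 3.86-fold, Ccl12 at 2.26-fold and Ccl7 at 2.08-fold, and Ccl21a down 51.4-fold. For knockout against wild type after LPS the authors' deposited table gave 9 up, all but Ccl11, and after saline 1 up (Ccl17, 2.05-fold) and 5 down, among them Ccl2 at 15.4-fold. These folds carry no error of their own, and those of wild-type saline average over its high and low arrays.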

How the data were processed

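Total RNA of amygdala was hybridised as Cy3-labelled cRNA to 16 1-colour arrays. Per the file headers, background subtraction and spatial detrending had been applied to the deposited spot intensity, and dim spots carry surrogate values. Agilent Feature Extraction 9.5 is named in the submitters' processing notes. A deposited list gives the authors' log2 group means for 24050 probes, and the deposited fold list holds the authors' linear fold change for 9489 probes with the direction in its own column. In both, 32 columns of per-array calls were not used.

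Here log2 intensity was taken relative to each array's 75th percentile, after leaving out control spots and outlier flags (0 to 79 spots an array, with 0 saturated). Probes well above background on at least 3 of 4 arrays of a group were kept, 28345 of 41174. RefSeq accessions named 24844 probes and the files' own names 16330. The kept probe with the highest mean stood for a gene. Any pair of arrays differed by a median of at least 0.12 (log2, over 20502 probes), so none was a copy. All 4 groups were fitted together in limma 3.58.1 (R 4.3.3, lmFit and eBayes) with Benjamini-Hochberg adjustment over 19462 genes, for 5 comparisons, after the script had been tested on simulated data. A value in a group with no array well above background is a bound, the bright group's mean against, per array, the dim probe's own signal or the lowest one well above background, whichever is higher. Such a bound carries no error and holds for the deposited background subtraction only. The 4 slides and the scan sessions each held 1 genotype. Array number limits the precision.

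The text names all 10 members, P2rx7, called members of 3 lists (other CC chemokines, CC chemokine receptors, and LPS receptor, NF-kB and interferon genes), cell markers, and up to 3 nearest genes per member. S100a8 and S100a9, named beside them, were not called. Some genes of these lists are counted and not reported here by name. Members and lists were chosen with earlier results of these data known. Replicate numbers come from the array file names. Arrays with the same number did not deviate together from their group means, with correlations over 0.1 for 1 of 4 numbers in each LPS comparison and 0 of 4 in each genotype comparison, so they were not treated as pairs. Alternatives were normexp background correction (offset 50), quantile and median scaling, no filter, other probe rules, fewer groups in the fit, slide and replicate blocks, and arrays left out. Probe coordinates are those of the array files (mm9), and sequences come from RefSeq (GRCm38.p6).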

Additional observations from a re-analysis of the deposited data

Results flagged for a closer look

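Of 40 sets of 4 arrays (10 chemokines in 4 groups), 2 had 1 array whose gap to its neighbour took up most of the set's range by Dixon's criterion, and chance alone singles out about 1 in 20. Ccl7 on knockout saline replicate 2 was low, at −7.17, in a group where no array was well above background. Ccl19 on knockout LPS replicate 4 was high, at 3.66, and without that array its LPS difference in the knockout was 2.21 (adjusted p = 0.0625).

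Ccl4 was called as differing between genotypes in its LPS response, by 4.86 ± 0.77 (adjusted p = 0.0462 for the interaction in limma), with Ccl4 higher after LPS by 4.93 in the knockout and by 0.08 in wild type. The call was near the threshold and held in 3 of 16 fits that each left out 1 array. It was lost under normexp (1.82, adjusted p = 0.236) and without wild-type saline replicates 1 and 2 (4.24, adjusted p = 0.17). Median scaling, no filter, the probe-level fit and a replicate block lost it too. The cause was not tested, and genotype cannot be told apart from slide.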

How the results depend on the processing

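The number of chemokines called is given here where another way of processing changed it. Square brackets hold the number called among all 19462 genes in the same fit. For LPS in the knockout (8 called [712]) normexp background correction gave 5 [429]. It lost Ccl3 (1.23, adjusted p = 0.0574), Ccl7 (1.68, adjusted p = 0.059) and Ccl11 (0.31, adjusted p = 0.745). Slide 4 alone gave 7 [178], without Ccl19, and leaving out 1 array gave 7 to 9 [428 to 754]. Ccl19 was not called there without any one of 7 of the 8 knockout arrays, with the p given above. For LPS in wild type (0 called [2]) fitting its 2 groups alone gave 1 [7], and slide as a fixed block gave 1 [4]. Slide 2 alone gave 2 [244] and slide 1 alone 0 [2]. Leaving out 1 array gave 0 to 1 [0 to 19], and leaving out saline replicates 1 and 2 together 5 [610]. For knockout against wild type after saline (5 called [9931]) several alternatives gave 2. They were normexp [11876], its 2 groups alone [8048], slide as a random block [8575] and leaving out that pair [6957]. The mean of the kept probes gave 4 [9991], losing Ccl7 (adjusted p = 0.0819). Leaving out 1 array gave 1 to 5 [8553 to 9944]. There was 1 call without either wild-type saline replicate 1 or replicate 2, and 2 or 3 without a knockout saline array. After LPS (6 called [9188]) the 2 groups alone gave 8 [10734], slide as a random block 5 [7859] and leaving out that pair 9 [9615]. Leaving out 1 array gave 4 to 7 [7938 to 10843], and normexp gave 6 [6528] with Ccl5 in place of Ccl19. The interaction (1 called [7]) fell to 0 under normexp [0], median scaling [3] and without the saline pair [1]. It also fell to 0 with no filter [1 of 28632 genes] and in the probe-level fit [1 of 28345 probes]. Leaving out 1 array gave 0 to 2 [0 to 11].

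The knockout minus wild type difference after saline turned positive under normexp for Ccl3 (1.44), Ccl4 (0.44), Ccl7 (0.41) and Ccl11 (0.43), where only Ccl3 was called (adjusted p = 0.00396), and without the saline pair for Ccl5 (2.47), Ccl12 (1.22) and Ccl19 (0.76), of which only Ccl5 was called. Ccl5, Ccl12, Ccl19 and Ccl21a also crossed 0 in single alternatives, by at most 0.15. With replicate number as a replicate block the calls were 8, 0, 5, 6 and 0 in the order above, where 572, 0, 9334, 8594 and 0 of all 19462 genes were called. Among the members this pairing therefore changed only the Ccl4 interaction (adjusted p = 0.0869). The Ccl4 interaction estimate was 1.82 under normexp and 4.24 to 5.21 under every other alternative. Signal near background limits Ccl3, Ccl7 and Ccl11 in saline arrays and Ccl21a in wild-type LPS arrays, and slides of 1 genotype allow no within-slide genotype value. The causes of these changes were not tested.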
